A study of Rattus norvegicus with 48 samples.

Results

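Krt19, Krt8 and Krt18 encode keratins of simple, single-layered epithelia. The set was compared here between rat control liver, untreated preneoplastic nodules and nodules under thyroid hormone. Members were the probes that carry these gene symbols in the array annotation. Krt19 and Krt8 each had 1 probe, and both were kept by the detection filter. No probe carried the symbol Krt18, which was not analysed here. The set is therefore 2 of 13337 genes named on the array.

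Keratins form filaments only as heteropolymers of a type I chain, such as Krt18 or Krt19, with a type II chain, such as Krt8. Hepatocytes of adult liver make Krt8 and Krt18 and normally no other keratin pair, whereas bile duct epithelium and hepatic progenitor cells add Krt7 and Krt19. Krt19 is for that reason used as a marker of duct or progenitor character in liver lesions.

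RNA of male Fischer rat liver was hybridised to 1-colour Illumina bead arrays. The 48 arrays held 8 control livers, 10 untreated preneoplastic nodules named KRT-19-negative in the titles, 10 untreated KRT-19-positive nodules, 10 KRT-19-positive nodules under triiodothyronine (T3, the active thyroid hormone) for 2 d and 10 under T3 for 4 d. How the nodules were induced, the animals' age and the T3 dose are not given in the labels, nor are separate animals stated, so p-values measure the spread between samples, which may be technical. The titles name nodules in the plural and do not say whether an array holds 1 nodule or several. Where a nodule or a liver is counted below, it stands for 1 array. KRT-19 names the nodule groups. Differences of Krt19 between KRT-19-positive nodules and control, and between positive and negative nodules, treated or not, are therefore given as descriptions without a p-value.

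Levels are normalised log2 intensities, and a difference was called at an adjusted p under 0.05 in a limma fit over 11558 features on all arrays. Between 8380 and 10695 probes per array were detected, with a median of 9218 in control liver and 10493 in untreated KRT-19-positive nodules. Hepatocyte markers were detected in all groups, with a summed intensity of 128644 to 227339 for 10 measured genes. Of 9 measured thyroid hormone response genes, 8 were higher after 4 d of T3 than in untreated positive nodules and 1 did not pass, where 27.1% of all features were higher. Comparisons below share the control or the untreated positive arrays, so their values are set side by side and are not independent. In tissue RNA, fewer cells of a type and less RNA per cell cannot be told apart.

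In the RefSeq annotation of GRCr8, Krt8 and Krt18 are neighbouring protein-coding genes, and Krt19 lies between Krt15 and Krt9 in another cluster. The upstream sequence of Krt8 is shown because Krt8 passed the test in 8 of the 10 comparisons below. It covers bases -250 to -91 from the annotated start, chr7:135010430-135010589 on the minus strand, with matches to the TATA box in capitals.
Krt8: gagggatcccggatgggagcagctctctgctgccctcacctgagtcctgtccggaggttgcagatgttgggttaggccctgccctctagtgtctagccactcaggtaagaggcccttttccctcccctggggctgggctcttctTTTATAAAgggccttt
The search used the table's 300 bases, 250 before and 50 after the start, on both strands. TATAAA matched once on each strand, in overlapping letters, with the forward match at -104 to -99 from the annotated start. It was present in 14.2% of 33469 promoters of that length. The AP-1 motif TGACTCA had 1 match, after the annotated start and outside the printed stretch, and was present in 4.63% of promoters. The GC box GGGCGG, present in 33.1%, and the nuclear receptor element AGGTCA, present in 16.2%, had no match in these 300 bases. These matches are letters in a sequence and were not measured as binding, and whether the bases after the annotated start act as promoter was not tested. Nor was it tested whether transcription begins at the annotated start, to which the searched window and all positions refer.

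Krt19, the type I keratin of ducts and progenitors, spanned the widest range of the members. In the 8 control livers the lowest level was 5.67, the median 6.39 and the highest 7.94. In KRT-19-negative nodules these values were 6.06, 8.56 and 10.09, and in untreated KRT-19-positive nodules 11.03, 11.65 and 12.73. No positive nodule overlapped with a negative nodule or a control liver, which is no finding because KRT-19 names these groups. Krt19 was detected above background on all 48 arrays, the control and negative ones included.

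The nodules called negative were not uniform in Krt19 RNA. Of the 10 arrays, 6 lay above every control array and 2 lay below the control mean. Arrays 2, 4, 5 and 9 by title number reached 9.98, 9.88, 9.55 and 10.09, while arrays 1 and 8 stood at 6.06 and 6.10. The SD was 1.54 (n = 10) in this group against 0.68 (n = 8) in control and 0.62 (n = 10) in positive nodules. The mean was 1.87 ± 0.40 log2 (SE) higher than in control, a 3.65-fold difference (limma adjusted p = 0.000439), where 21.9% of all features were called.

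Under T3 the Krt19 signal of KRT-19-positive nodules fell at both times. After 2 d the lowest level was 8.87, the median 10.40 and the highest 11.74, with 8 of 10 arrays below every untreated positive array. After 4 d these values were 7.47, 7.92 and 8.77, and all 10 arrays lay below both the untreated and the 2 d arrays. Compared with untreated positive nodules the mean fell by 1.58 ± 0.38 log2 (SE) at 2 d (2.98-fold lower, limma adjusted p = 0.0011) and by 3.80 ± 0.38 at 4 d (13.9-fold lower, limma adjusted p = 3.56e-12). The step from 2 d to 4 d was -2.22 ± 0.38 log2 (limma adjusted p = 3.2e-06). With title numbers 1 to 5 alone the 2 d value was -1.60 (adjusted p = 0.0503). The shares of features called were 31.3% at 2 d, 53.7% at 4 d and 44.4% between the T3 times.

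Against control the treated nodules, also named KRT-19-positive, are given without a p-value. At 2 d the Krt19 mean lay 3.74 log2 above that of control, and the ranges did not overlap. At 4 d it lay 1.52 log2 above, with all 10 arrays above the control mean and 4 above every control array. The 4 d mean of 8.03 lay 0.34 log2 below that of KRT-19-negative nodules, within whose range all 10 arrays fell. Without background subtraction the differences from control were smaller, at 1.25 in negative nodules, 2.72 at 2 d and 0.87 at 4 d. Of these, only the first is read as a test, and it was still called.

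Krt8, the type II keratin of hepatocytes and ducts, was the member that the group names do not involve. Control livers were tight, with a lowest level of 12.33, a median of 12.46 and a highest of 12.60. KRT-19-negative nodules ran from 12.79 through a median of 13.44 to 13.96, and untreated positive nodules from 13.82 through 14.19 to 14.46. Every nodule of either kind lay above every control liver, and 9 of 10 positive nodules lay above every negative nodule.

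The order control, negative, positive held for Krt8 by test as well. Negative nodules exceeded control by 0.93 ± 0.18 log2 (SE), a 1.90-fold difference (limma adjusted p = 0.000128). Positive nodules exceeded control by 1.71 ± 0.18 log2, a 3.28-fold difference (limma adjusted p = 3.03e-11, 48.7% of features called), the 287th largest rise among all 11558 features. Positive exceeded negative nodules by 0.78 ± 0.17 log2, a 1.72-fold difference (limma adjusted p = 0.000305, 32% of features called).

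**Figure D1:**
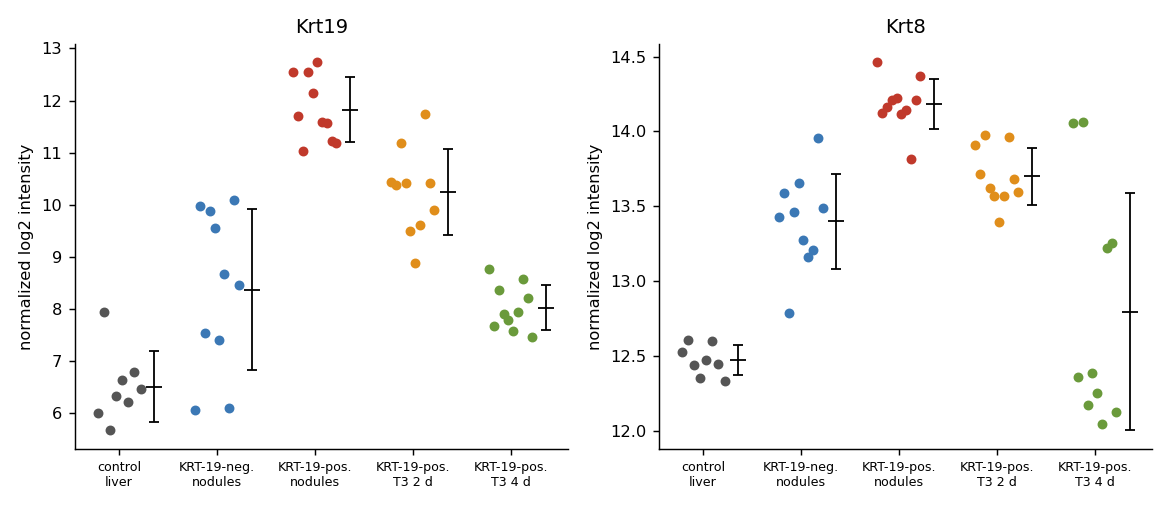
Normalised log2 intensity of Krt19 (left) and Krt8 (right) on each of the 48 arrays, by group on the horizontal axis. Points are arrays in order of title number, the dash and bar beside them are the mean and SD; the 4 d Krt8 values fall into a set at 13.22 to 14.06 and a set at 12.04 to 12.39.

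Under T3, Krt8 also fell. At 2 d the levels ran from 13.40 through a median of 13.65 to 13.97, and 7 of 10 arrays lay below every untreated positive array. The difference from untreated positive nodules was -0.49 ± 0.17 log2 (SE, limma adjusted p = 0.0268). This call was lost when each array's count of detected probes entered the model (-0.29, adjusted p = 0.252), and with title numbers 1 to 5 alone (adjusted p = 0.263) or 6 to 10 alone (adjusted p = 0.0659).

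At 4 d the Krt8 fall was larger and uneven. Levels ran from 12.04 through a median of 12.37 to 14.06, and 8 of 10 arrays lay below every untreated positive array. The mean fell by 1.39 ± 0.17 log2 from untreated positive nodules (2.62-fold lower, limma adjusted p = 1.55e-09) and by 0.91 ± 0.17 from 2 d (limma adjusted p = 2.09e-05). Arrays 1, 3, 8 and 9 stood at 14.06, 14.06, 13.22 and 13.26, above every control liver, and the other 6 at 12.04 to 12.39, of which 4 lay below every control liver. The mean difference from control was 0.32 log2 with a 95% interval of -0.05 to 0.69 (limma adjusted p = 0.159, 42% of features called), so this mean describes neither set of arrays.

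The same 4 arrays were the highest of their group in Krt19, at 8.77, 8.37, 8.57 and 8.21 against 7.47 to 7.94 in the others. They were also the highest in Gstp1, the placental glutathione transferase that marks preneoplastic rat hepatocytes, at 14.50, 14.12, 12.95 and 13.20. The remaining 6 arrays had Gstp1 levels of 9.36 to 10.56. Among negative nodules, array 3 was lowest in both Krt8 (12.79) and Gstp1 (9.25).

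The Krt8 median at 4 d of T3 lay below that of control, while its mean lay above. By mean level, both members gave the order control, T3 4 d, negative, T3 2 d, positive. For Krt8, 2 neighbours in that order did not differ beyond their spread: control and 4 d (above), and negative nodules and 2 d, which differed by 0.30 log2 with a 95% interval of -0.05 to 0.65 (limma adjusted p = 0.167, 41.4% of features called). The 4 d level was 0.61 ± 0.17 log2 (SE) below negative nodules (limma adjusted p = 0.00319, 46.5% of features called), a call that was lost with title numbers 1 to 5 alone (-0.38, adjusted p = 0.291). At 2 d Krt8 was 1.23 ± 0.18 log2 above control (limma adjusted p = 1.39e-07, 47.3% of features called).

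Under T3, Krt19 and Krt8 changed unequally in each of the 3 comparisons between positive nodule groups. The test was a two-sided exact permutation of the within-array difference of both log2 levels, adjusted over 6 comparisons. Because each probe has its own response, it compares changes of these probes and not amounts of RNA. From untreated to 4 d of T3, the Krt19 change was 2.41 log2 further down than that of Krt8 (exact permutation adjusted p = 6.5e-05, where the raw p is the smallest that these groups allow). At 2 d it was 1.09 log2 further down (exact permutation adjusted p = 0.00192), and from 2 d to 4 d 1.31 further down (exact permutation adjusted p = 0.000108). The T3 groups against control are among the 6, but are given as a description without a p-value because KRT-19 names these groups. There Krt19 stood further up than Krt8 by 2.51 at 2 d and by 1.20 at 4 d. In negative nodules against control the excess of 0.94 did not pass (exact permutation adjusted p = 0.0975).

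Within groups, both keratins varied together in T3-treated nodules. At 2 d Pearson's r was 0.91 (n = 10, permutation adjusted p = 0.0005) and Spearman's rho 0.94 (permutation adjusted p = 0.00085). At 4 d r was 0.87 (n = 10, permutation adjusted p = 0.00442) and rho 0.68 (permutation adjusted p = 0.0733). The 4 d arrays form separate sets in Krt8, so that r describes the sets and no relation within them was tested. Leaving out the 2 arrays farthest from the Krt19 median left r at 0.84 and 0.82.

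In the other 3 of the 5 relations computed, the correlation over all arrays of the group did not pass. Negative nodules had r = 0.59 (n = 10, permutation adjusted p = 0.117) and rho = 0.66 (permutation adjusted p = 0.0733). Without the 2 outermost arrays their r rose to 0.79 (permutation adjusted p = 0.025), beside 0.82 at 4 d (permutation adjusted p = 0.025). With median-centred arrays r was 0.26 in negative nodules (permutation adjusted p = 0.634) and 0.86 at 4 d. Whether the correlation differs between groups was not tested. Control livers had r = 0.35 (n = 8, exact permutation adjusted p = 0.514) with rho = 0.21, and untreated positive nodules r = 0.17 (n = 10, permutation adjusted p = 0.651) with rho = 0. In both, r fell below 0 without the outermost arrays, at -0.37 and -0.031.

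**Figure D2:**
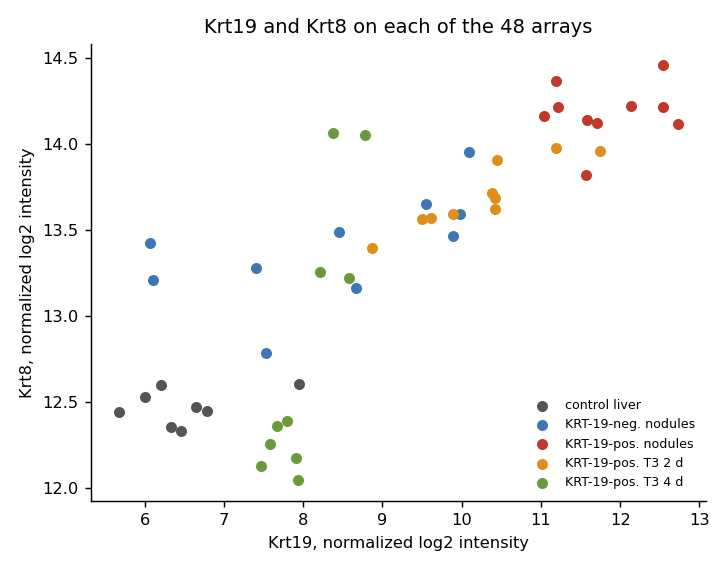
Normalised log2 intensity of Krt8 (vertical) against Krt19 (horizontal), 1 point per array and 1 colour per group. By group mean, control livers are lowest and untreated KRT-19-positive nodules highest in both, 4 of the 4 d arrays lie below every control liver in Krt8, and the 2 d arrays (r = 0.91) follow a slope within their group.

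The rest of the keratin family gave little signal. Of 42 keratin probes, 12 were kept, and only those of Krt19 and Krt8 were detected on all arrays, while 17 were detected on none. Krt7, the type II duct keratin that pairs with Krt19, was above background on 3 of 48 arrays, and the stress-associated Krt23 on 1. Among the 10 kept keratins besides the members, mean levels in control liver were 5.08 to 6.01, close to the limit of detection.

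In untreated positive nodules, 4 of these 10 keratins were higher than in control and none was lower, against 24.8% higher and 23.9% lower among all features. Krt10 and Krt4 were detected on few control arrays and on most positive arrays. The counts of these 10, here and under T3 below, therefore depend partly on the filter. The median difference of the 10 was -0.19 against -0.03 for all features. Krt20, a keratin of intestinal epithelium, went from a control median of 6.00 (5.17 to 6.91) to 7.32 (6.76 to 8.57) in positive nodules, a difference of 1.43 ± 0.31 log2 (SE, limma adjusted p = 0.000101). Krt10, a keratin of upper epidermal layers, was 0.69 ± 0.18 higher (limma adjusted p = 0.00137), and 0.63 ± 0.18 higher in negative nodules (limma adjusted p = 0.00869). The call of Krt10 in positive nodules was lost when each array's count of detected probes entered the model (0.40, adjusted p = 0.12) and with arrays centred on their median (0.25, adjusted p = 0.176). The latter setting also ended the call of Krt10 in negative nodules (0.44, adjusted p = 0.0582), as did upper title numbers alone (adjusted p = 0.18).

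Krt20 was above control after 4 d of T3, when it ran from 7.18 through a median of 7.45 to 7.72 and was detected on all 10 arrays. It stood 1.45 ± 0.31 log2 (SE) above control (limma adjusted p = 0.000113). Its difference from untreated positive nodules was 0.02 ± 0.29 (limma adjusted p = 0.965), and it rose by 0.84 ± 0.29 from 2 d (limma adjusted p = 0.0154). That rise was not called with title numbers 1 to 5 alone (0.82, adjusted p = 0.203). Its difference from untreated positive nodules at 2 d (-0.82, adjusted p = 0.0254) was no longer called without positive array 4 (0.0648) or 6 (0.0619), or 2 d array 5 (0.0709) or 10 (0.05002).

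The calls for Krt12 and Krt4, keratins of cornea and of oesophageal lining, rested on few arrays. Krt12 was at 10.22, 10.85 and 9.34 on positive arrays 3, 4 and 5 and at 4.93 to 5.31 on the other 7, against 4.84 to 6.43 in control. Its mean difference from control of 1.26 was no longer called without array 3 (adjusted p = 0.124), 4 (adjusted p = 0.134) or 5 (adjusted p = 0.109), or without control array 2, 4, 5, 6 or 7 (adjusted p of 0.0549 to 0.0663). Krt4 was 0.41 log2 higher in positive nodules than in control (limma adjusted p = 0.0271), which was lost without control array 1 (adjusted p = 0.0521) or 3 (adjusted p = 0.0708). With arrays centred on their median the Krt4 difference was 0.025 (adjusted p = 0.888).

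After 4 d of T3, 2 of the 10 other keratins were higher than in untreated positive nodules, 1 was lower and 7 did not pass, against 27.1% higher and 26.6% lower among all features. The higher ones were Krt27 and Krt36, keratins of hair follicle and nail, by 0.39 each (limma adjusted p = 0.004 and 0.00641). The lower one was Krt10 (-0.41, limma adjusted p = 0.0437). That call was lost without positive array 1, 2, 4, 5, 6 or 7 or without 4 d array 1, 3, 8, 9 or 10, with adjusted p of 0.0503 to 0.0983.

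**Figure D3:**
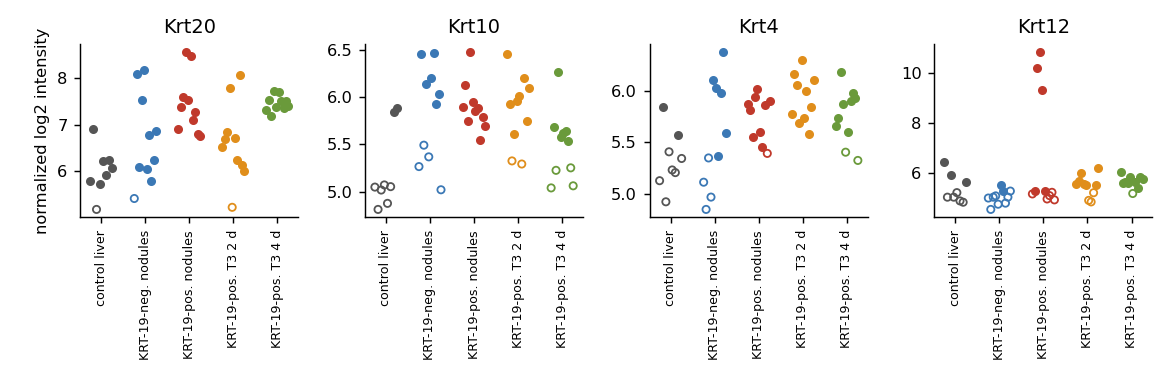
Normalised log2 intensity of Krt20, Krt10, Krt4 and Krt12 on each array, by group. Filled points were detected above background and open points were not; Krt20 runs from 7.18 to 7.72 at 4 d of T3, and the 3 high Krt12 arrays are untreated positive nodules.

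The duct and progenitor markers other than Krt19 were followed as the list that Krt19 belongs to. Of 22 listed genes, 15 had a probe and 11 were tested, while Krt7, Krt23, Ehf and Bicc1 were not kept. Tff3 and Prom1 were detected on no control array and were kept through nodule arrays. The counts of higher genes among the 11 therefore depend partly on the filter. In negative nodules 5 were higher, 1 lower and 5 not called, and in positive nodules 8 were higher, 1 lower and 2 not called against control. Among all features 11.2% were higher and 10.7% lower in negative nodules, and 24.8% higher and 23.9% lower in positive nodules. The median difference of the 11 was 0.52 and 0.59, against -0.01 and -0.03 for all features. After 4 d of T3, 1 was higher, 5 were lower and 5 were not called against untreated positive nodules, with a median of -0.15 against 0.00 for all features, of which 27.1% were higher and 26.6% lower. The summed intensity of the list ran from 2696 to 3571 in control, 3191 to 5738 in negative nodules, 7022 to 9646 in positive nodules, 4103 to 8130 at 2 d and 2690 to 4145 at 4 d.

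Epcam and Cd24, surface proteins of duct and progenitor epithelium, were higher than control in both kinds of untreated nodule and fell by 4 d of T3. Epcam had medians of 7.87 in control, 9.60 in negative nodules and 10.97 in positive nodules, then 9.98 at 2 d and 8.68 at 4 d. It was 3.07 ± 0.19 log2 (SE) higher in positive nodules than in control (limma adjusted p = 5.59e-19) and fell by 2.33 ± 0.18 at 4 d (limma adjusted p = 3.37e-16), without overlap in either comparison. In negative nodules the Cd24 call was lost with title numbers 5 to 8 of control and 6 to 10 of nodules alone (1.15, adjusted p = 0.0715). Cd24 was 4.17 ± 0.30 higher in positive nodules (limma adjusted p = 1.23e-16) and fell by 2.30 ± 0.28 at 4 d (limma adjusted p = 1.16e-09). Prom1, a progenitor surface protein, was detected on no control array, on all 10 positive arrays and on all 10 arrays at 4 d, where its difference from untreated positive nodules was 0.09 (limma adjusted p = 0.758). Spp1, of the same list, was near the limit of detection. Its means were 5.27 in control, 5.91 in negative and 5.85 in positive nodules, 5.58 at 2 d and 5.73 at 4 d. Cldn4, Muc1 and Elf3 were as dim, with means of 5.44, 5.74 and 5.44 in positive nodules and 5.29, 5.67 and 5.34 at 4 d. The anion exchanger Slc4a2 went against the list, 1.08 ± 0.20 lower in positive nodules (limma adjusted p = 7.92e-06). With lower title numbers alone (1 to 4 in control, 1 to 5 in nodules) it was -0.56 and not called (adjusted p = 0.0988).

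Markers of other cells were compared between the same groups. The summed intensity of 7 measured genes of stellate cells and fibroblasts had medians of 3411 in control, 4623 in negative nodules, 10078 in positive nodules, 9444 at 2 d and 4602 at 4 d. Of these 7, 6 were higher and 1 lower in positive nodules than in control, against 24.8% higher and 23.9% lower among all features. Col1a1 was detected on 2 of 8 control arrays and on all 10 positive arrays, so this count depends partly on the filter. Of 10 hepatocyte genes, 1 was higher and 5 were lower in positive nodules than in control, with a median of -0.35. Compared with negative nodules, 5 were lower and none was higher, with a median of -0.43. Of all features 32% were called in that comparison, in either direction. After 4 d of T3, 4 were higher and 1 lower than in untreated positive nodules, with a median of 0.18. Of all features 27.1% were higher and 26.6% lower at that step. Msln, the only mesothelial marker tested (Krt8 and Krt19 are also keratins of mesothelium), was 1.77 ± 0.32 log2 (SE) higher in positive nodules (limma adjusted p = 5.84e-06) and differed by 0.15 between 4 d and untreated positive nodules (limma adjusted p = 0.708). Its means were 5.83 in control, 7.50 in negative and 7.60 in positive nodules, 7.50 at 2 d and 7.75 at 4 d. The part of these cells in the keratin values was not tested.

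Genes of the keratin scaffold were described next. Of 8 tested desmosome and linker genes, 4 were higher and 1 lower in positive nodules than in control, where 24.8% of all features were higher and 23.9% lower. After 4 d of T3, 5 were lower and 2 higher than in untreated positive nodules, where 26.6% of all features were lower and 27.1% higher. Their median differences were 0.28 and -0.43, against -0.03 and 0.00 for all features. Plec, the plectin that ties keratin filaments to other cell structures, was 0.59 ± 0.12 log2 (SE) higher in positive nodules (limma adjusted p = 8.36e-05) and fell by 1.19 ± 0.12 at 4 d (limma adjusted p = 2.19e-12), to a median of 8.38 against 8.99 in control. The rise of Plec was not called with lower title numbers alone (0.45, adjusted p = 0.0866). Perp, a desmosomal membrane protein, fell by 1.10 ± 0.10 at 4 d (limma adjusted p = 5.07e-13). Pkp2, a desmosomal plaque protein of simple epithelia, rose by 0.97 ± 0.13 in positive nodules (limma adjusted p = 4.62e-09) and by a further 0.89 ± 0.12 at 4 d (limma adjusted p = 8.52e-09), the opposite of Krt8 in the second step.

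Among 9 tested genes of other intermediate filaments, 4 were higher and 3 lower in positive nodules than in control. Of all features 24.8% were higher and 23.9% lower. At 4 d, 5 of the 9 were lower and 1 higher than untreated, against 26.6% lower and 27.1% higher among all features. The medians of the 9 were 0.09 and -0.66, against -0.03 and 0.00 for all features. Vim, the filament of mesenchymal cells, was 0.76 ± 0.15 log2 (SE) higher in positive nodules (limma adjusted p = 2.41e-05) and fell by 0.90 ± 0.14 at 4 d (limma adjusted p = 2.44e-07). The neuronal filament Nefm did likewise (1.31 ± 0.27, limma adjusted p = 4.9e-05, then -1.52 ± 0.25, limma adjusted p = 1.03e-06). Nefl, its partner, was detected on no control array, on all 10 positive arrays and on 4 arrays at 4 d. Nefl was therefore kept through nodule arrays, and the counts of the 9 depend partly on the filter.

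Mallory-Denk bodies are aggregates of Krt8 and Krt18 with p62 and chaperones. Of 5 tested genes of that list, 2 were higher in positive nodules than in control and 3 were not called, with a median of 0.02; after 4 d of T3, 2 were higher, 2 lower and 1 not called, with a median of -0.08. Of all features 48.7% were called in the first comparison and 53.7% in the second. The count of this list lay near that share in the first comparison and above it in the second, on only 5 genes. Sqstm1, which encodes p62, was 0.76 ± 0.12 log2 (SE) higher in positive nodules (limma adjusted p = 4.41e-07) and fell by 0.77 ± 0.11 at 4 d (limma adjusted p = 7.03e-08). Cryab, a small heat shock protein that binds intermediate filaments, was 4.14 ± 0.31 higher (limma adjusted p = 7.47e-16) and fell by 2.32 ± 0.30 (limma adjusted p = 3.22e-09). Hspb1, another small heat shock protein, rose by 1.52 ± 0.20 at 4 d (limma adjusted p = 9.6e-09). Aggregates themselves were not measured.

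**Figure D4:**
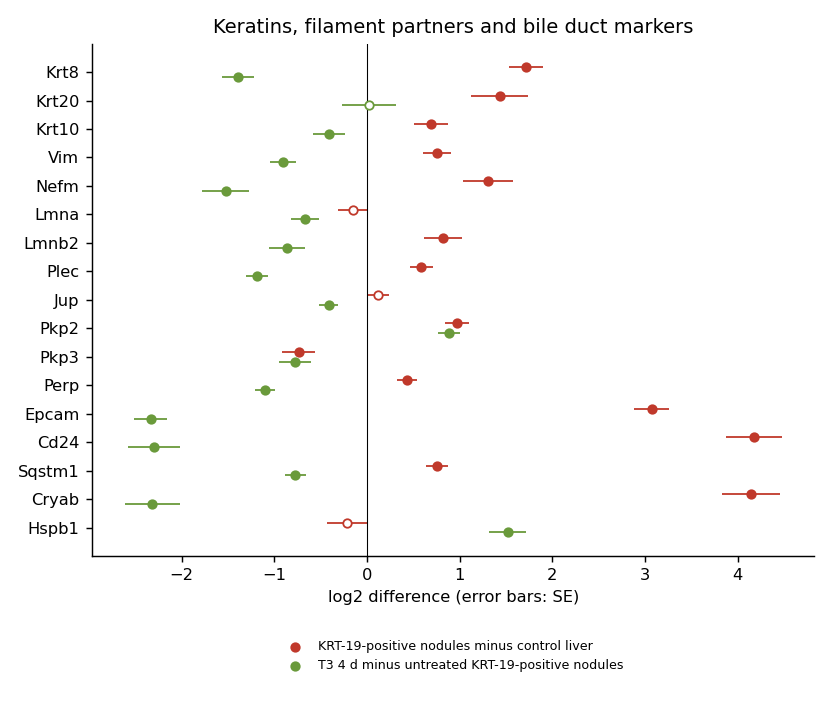
Log2 difference with its SE for Krt8, other keratins, filament and desmosome genes, duct markers and Mallory-Denk genes, in untreated KRT-19-positive nodules minus control (red) and in T3 4 d minus untreated positive nodules (green). Filled points passed an adjusted p of 0.05 and open points did not; Krt8, Vim, Plec, Epcam, Cd24 and Cryab lie right of 0 in red and left of 0 in green, while Pkp2 lies right of 0 in both.

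The genes most like each member were found among 8217 named genes. The first measure was the root mean square distance between the 4 mean log2 differences from control. Krt19 was closest to Agtpbp1 (0.31), a carboxypeptidase that trims tubulin, Tubb6 (0.37), a beta tubulin, Spint1 (0.56), an epithelial protease inhibitor, Gipc2 (0.57) and Tceal9 (0.61), with a median distance of 3.47 over all genes and 2.33 to Krt8. Agtpbp1 differed from control by 1.85, 4.80, 4.01 and 1.73 in negative, positive, 2 d and 4 d nodules, beside 1.87, 5.32, 3.74 and 1.52 for Krt19. Krt8 was closest to Cnp (0.08), a phosphodiesterase of myelin-forming cells, Cygb (0.10), the globin of stellate cells, Trim37 (0.12), Lurap1l (0.12) and the stress transcription factor Atf3 (0.14), with a median of 1.19. In the authors' value table, 3 of the 5 genes remained among the 5 closest to Krt19, and 0 of 5 among those closest to Krt8.

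The second measure was Pearson's r of deviations from the group means over the 48 arrays, given as a description. Krt19 varied most closely with Ctse (0.82), an aspartic protease, Dab2 (0.77), an endocytic adaptor, Tspan3 (0.76), Tacc2 (0.74) and the calcium-binding S100a11 (0.74). The r with Ctse was 0.64, 0.87, 0.72, 0.86 and 0.91 within the control, negative, positive, 2 d and 4 d groups. For Dab2, Tspan3, Tacc2 and S100a11, r with Krt19 was 0.48, -0.0049, 0.35 and 0.55 in control. In untreated positive nodules these values were 0.76, 0.65, 0.53 and 0.56. Krt8 varied most closely with the epoxide hydrolase Ephx1 (0.91), the glutathione peroxidase Gpx2 (0.89), the quinone reductase Nqo1 (0.89), the small GTPase Rhoc (0.88) and the transporter Slc17a3 (0.87). The r with Ephx1 was 0.99 within the 4 d group, where 4 arrays stand apart, and 0.42 within untreated positive nodules. The other 4 genes also reached 0.98 to 0.99 at 4 d, but r with Krt8 was -0.54 for Nqo1 in control, -0.31 for Slc17a3 in untreated positive nodules and -0.037 for Rhoc at 2 d. The r between Krt19 and Krt8 by this measure was 0.43. For each member, 4 of the 5 genes remained in the authors' value table. All arrays share the same normalisation, which these values include.

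**Figure D5:**
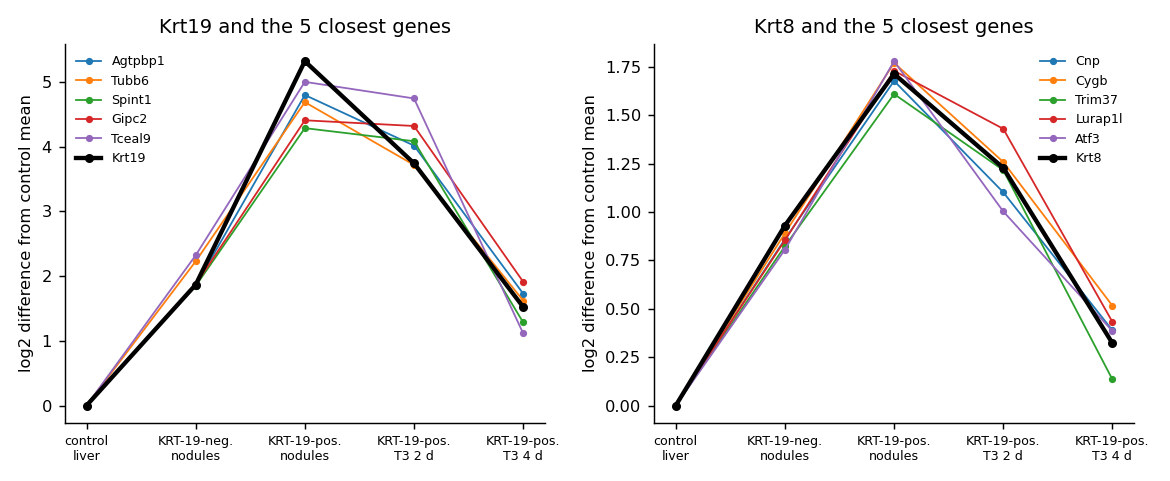
Mean log2 difference from control for Krt19 (left, black) and Krt8 (right, black) with the 5 genes of smallest distance to each, by group on the horizontal axis; lines only join the values of a gene. Krt19 peaks at 5.32 and Krt8 at 1.71 in untreated KRT-19-positive nodules.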

How the data were processed

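RNA of 48 samples of rat liver and nodules was measured on 1-colour bead arrays. Per the file headers, the deposited table holds non-normalised linear intensities, with a detection p-value deposited for each. BeadStudio 3.0.19.0 is named in the submitters' processing notes. A further deposited table gives the authors' processed intensities, which by their values were quantile normalised on the linear scale with no background taken off. The authors' genome build: not given in the sources used here. Of 22523 probes, 13793 carried 1 symbol, none several and 8730 none.

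Background was corrected from detection p-values (normexp) and arrays were quantile normalised with an offset of 16 on the log2 scale (neqc, limma 3.58.1, R 4.3.3, package data.table in version 1.17.8). Probes detected (p-value below 0.05) on 8 arrays or more were kept (11723), and per gene the probe of highest raw mean was used, which left 11558 features. A group-means model was fitted over all 48 arrays with limma (lmFit, contrasts, eBayes with trend). P-values were adjusted by Benjamini-Hochberg per contrast. Permutation tests used SciPy 1.17.1, exact or with 100000 resamples. Scripts ran in Python 3.11.15 with numpy 2.4.6, pandas 2.3.3 and matplotlib 3.10.9. The fit was tested on simulated data. The number of arrays limits the precision.

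Members are the probe of highest raw mean per symbol. Likeness used, per member, the 5 genes of smallest distance and the 5 of highest r. Lists cover keratins, other intermediate filaments, desmosomes and linkers, Mallory-Denk genes, thyroid hormone response and markers of ducts, hepatocytes, mesothelium, stellate cells, macrophages, endothelium and lymphocytes. Members and lists were chosen with earlier results of these data known. Of 6 measured macrophage genes 3 were higher and 3 lower in positive nodules than in control, where 24.8% of all features were higher and 23.9% lower. Summed intensities ran from 557 to 1397 for 2 endothelial and from 287 to 746 for 6 lymphocyte genes. Alternatives covered background correction, normalisation, filter, offset, covariates, array weights, blocks, title numbers and each array left out. Promoter letters come from RefSeq (GRCr8).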

Additional observations from a re-analysis of the deposited data

Results flagged for a closer look

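Dixon's test of the extreme array in a group was applied to 60 combinations of a keratin and a group, and 3 passed, where chance gives about 1 in 20. Krt10 in array 4 of T3 4 d stood at 6.26, above the next array at 5.69 and the group mean of 5.49. Krt42 in array 5 of T3 4 d was at 6.49, with the next array at 5.25 and a mean of 5.16. Krt76 in array 5 of T3 2 d was at 6.25, with the next array at 5.68 and a mean of 5.51. Neither Krt19 nor Krt8 had such an array in any group.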

How the results depend on the processing

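Leaving out each array in turn kept the direction and the call of every Krt19 and Krt8 difference, and each count of called features stayed within 1.5 times. Krt19 in positive nodules minus control was 4.20 with the authors' value table or without background subtraction. With arrays centred on their median, 5672 features were called in positive minus negative nodules and 5595 at 2 d minus untreated, against 3704 and 3620. A fit of only the groups compared called 1686 features in negative minus control, against 2534, and called Krt8 at 2 d minus negative nodules (0.30, adjusted p = 0.0363). With detected probes as a covariate Krt8 at 2 d minus untreated was -0.29 (adjusted p = 0.252). With lower title numbers alone (1 to 4 in control, 1 to 5 in nodules), 2 d minus untreated was -1.60 for Krt19 (adjusted p = 0.0503) and -0.48 for Krt8 (adjusted p = 0.263), 4 d minus negative nodules was -0.38 for Krt8 (adjusted p = 0.291), and 1562 features were called at 2 d minus untreated and 3071 at 4 d minus 2 d (5136 with all arrays); fewer arrays enter these fits. With upper title numbers alone, 1681 features were called in negative minus control, Krt8 at 2 d minus untreated was -0.49 (adjusted p = 0.0659), and Krt12 in positive nodules was -0.045 against control and -0.085 against negative nodules, since the arrays with high Krt12 have lower numbers. These title number splits were chosen after seeing the data. The correlation of Krt19 with Krt8 without the 2 arrays farthest from the Krt19 median was -0.37 in control, -0.031 in positive nodules and 0.79 in negative nodules (permutation adjusted p = 0.025), and with median-centred arrays it was -0.23 in positive nodules. For all other changes the cause was not tested. Of 92 same-numbered pairs of arrays, 19 had an r over 0.1 (range -0.43 to 0.34), so the numbers were not taken to pair samples. The medians were highest for control with negative nodules (0.20, 5 of 8 pairs over 0.1) and for 2 d with 4 d (0.12, 7 of 10). With the title number as a replicate block, Krt19 in negative minus control was 1.87 (adjusted p = 0.00101) and Krt8 at 4 d minus untreated -1.39 (adjusted p = 3.19e-09), 2281 features were called in negative minus control, and no call of Krt19 or Krt8 changed. Each member had 1 probe, so another probe could not be tried. Low signal limits the other keratins, which lie near the limit of detection.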
